A study of Mus musculus with 2 samples.

Results

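Genes that mark homeostatic microglia, the resting macrophages of the brain and spinal cord, were followed in macrophages of the mouse sciatic nerve. The genes were taken as a list, P2ry12, P2ry13, Siglech, Tmem119, Olfml3, Gpr34, Fcrls, Sparc and Sall1, and all 9 were present among the 54838 genes of the count matrices. The matrices held 2 single-cell libraries of sciatic nerve (SN) macrophages sorted by CD64 and CD45 from 19 male mice aged 10 to 12 weeks, and all mice carried Flt3-Cre together with a Cre-dependent YFP reporter (LSL-YFP fl/fl). The YFP positive library held cells whose own history, or that of their precursors, passed through a stage with Flt3, as progeny of multipotent blood progenitors do. The YFP negative library held cells without that label. A cell lacks YFP when it never passed through that stage and also when Cre failed to recombine, and these cannot be told apart here. The nerves of the mice were pooled, so each group is 1 library with no replicate, no test between the groups was possible, and every interval below is a 95% interval for counting error only. No microglia were part of these libraries, so the levels below have no microglial value beside them.

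Microglia and nerve macrophages are both resident macrophages of nervous tissue, and a set of genes has long been used to tell microglia from other macrophages. P2ry12 and P2ry13 are G protein-coupled receptors for ADP, by which microglia sense nucleotides released from nearby cells. Gpr34 is a receptor for lysophosphatidylserine. Siglech is a Siglec family surface protein of microglia that is also used as a marker of mouse plasmacytoid dendritic cells. Fcrls is an Fc receptor-like surface protein of the mouse. Tmem119 is a transmembrane protein used to stain microglia, Olfml3 is a secreted olfactomedin-like protein, Sparc is a secreted matrix protein also made by fibroblasts, Schwann cells and mural cells, and Sall1 is a zinc finger transcription factor on which microglial identity depends. TGF-beta signalling maintains this gene set in microglia.

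The 2 libraries differed in depth. The YFP negative library held 1045 cells, defined as barcodes with at least 500 unique molecular identifiers (UMIs) and 200 genes, with a median of 2233 UMIs, and the YFP positive library held 4053 cells with a median of 1484 UMIs. A total of 7 cell barcodes occurred in both libraries. Barcodes with 10 to 100 UMIs, which hold free RNA and no whole cell, gave 909646 and 2034293 UMIs and served as background. Macrophage RNA was abundant: all 9 genes of the macrophage marker list exceeded 20 CPM (UMIs of the gene per 1000000 UMIs of the cells). The receptor Csf1r stood at 992 CPM in YFP negative and 873 CPM in YFP positive cells. The 9 genes summed to 19081 and 19114 CPM in cells and to 20689 and 19254 CPM in free RNA, so these levels do not tell cells from free RNA. RNA of other nerve cells was present. The 7 Schwann cell markers summed to 704 and 647 CPM in cells and to 3296 and 5273 CPM in free RNA, the 6 mural cell markers to 10.3 and 117 CPM in cells, and the 6 fibroblast markers to 23.6 and 94.6 CPM in cells.

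The members lie on 6 chromosomes (GRCm38). P2ry13 (chr3:59207892-59210882) and P2ry12 (chr3:59216272-59262871) are neighbours on the minus strand, and both sit inside Med12l, which runs on the plus strand. Gpr34 (chrX:13632089-13640858, plus strand) likewise sits inside Cask on the minus strand. Fcrls (chr3:87250758-87263738, minus) and Olfml3 (chr3:103722222-103738001, minus) are also on chromosome 3. Siglech is at chr7:55768178-55778925 on the plus strand, Tmem119 at chr5:113793729-113800516, Sparc at chr11:55394500-55423183 and Sall1 at chr8:89027235-89044162, the last 3 on the minus strand. Of these host genes Med12l gave 7 UMIs in YFP negative and 15 UMIs in YFP positive cells, whereas Cask stood at 43.4 CPM in YFP negative and 43.3 CPM in YFP positive cells.

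RefSeq promoter sequence (GRCm38.p6) was held for 7 of the 9 members, all but Tmem119 and Gpr34, and is shown for P2ry13, the member that differed between the libraries, for P2ry12 as its neighbour, and for Siglech, whose level differed between groups of macrophages. Capitals mark AGGAAG, the core bound by ETS factors such as PU.1, and each sequence runs 5′ to 3′ on the strand of its gene. For P2ry13 the 250 bases before the gene (chr3:59210883-59211132, minus strand, within Med12l but in none of its exons) are given, for Siglech the 244 bases before the gene (chr7:55767934-55768177, plus strand, in no annotated exon), and for P2ry12 the 30 bases around its match (chr3:59263020-59263049, minus strand, opposite an exon of Med12l).
P2ry13: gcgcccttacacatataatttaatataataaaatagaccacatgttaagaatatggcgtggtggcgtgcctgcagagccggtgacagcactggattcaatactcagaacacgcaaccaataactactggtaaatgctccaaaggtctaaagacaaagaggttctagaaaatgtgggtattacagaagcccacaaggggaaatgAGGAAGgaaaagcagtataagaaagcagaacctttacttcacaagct
Siglech: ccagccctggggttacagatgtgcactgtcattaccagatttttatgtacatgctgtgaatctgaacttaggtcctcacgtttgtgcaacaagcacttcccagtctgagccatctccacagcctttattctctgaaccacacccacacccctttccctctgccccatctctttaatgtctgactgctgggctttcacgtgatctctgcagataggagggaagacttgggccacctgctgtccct
P2ry12: aagctaacaagaAGGAAGttccccagtgac
The match began 47 bases before the RefSeq start of P2ry13 and 52 bases before that of P2ry12. In the 250 bases before the start, read on both strands, AGGAAG occurred 1 time in each of P2ry12, P2ry13 and Olfml3, 4 times in Fcrls and 0 times in Siglech, Sparc and Sall1, and 29.5% of the 32851 RefSeq promoters held it. The SMAD letters CAGAC, held by 42.2% of promoters, occurred 2 times each in Siglech and Fcrls and 1 time each in P2ry12, Sparc and Sall1. The AP-1 letters TGANTCA (6.75% of promoters), the MEF2 motif (3.20%) and the ETS-IRF composite motif (2.30%) occurred in none of the 7. These are matches of letters and not binding sites.

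The members other than Sall1 were detected in both libraries, with levels from Tmem119 at the low end to Fcrls at the high end. Each UMI counts 1 molecule by its 3′ end, so levels are in CPM with no correction for length. Fcrls was the most abundant member, with 900 UMIs or 372 CPM (348 to 397) in YFP negative cells and 1940 UMIs or 288 CPM (275 to 301) in YFP positive cells. Gpr34 followed with 191 CPM (174 to 209) and 208 CPM (197 to 219), and Siglech with 127 CPM (114 to 142) and 114 CPM (106 to 122). Fcrls ranked 324 and 419 among the genes of the cells, of which 17758 had a UMI in the YFP negative and 19951 in the YFP positive library.

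The purinergic receptors were lower. P2ry12 gave 120 UMIs or 49.6 CPM (41.1 to 59.3) in YFP negative and 325 UMIs or 48.2 CPM (43.1 to 53.7) in YFP positive cells. P2ry13 gave 96 UMIs or 39.7 CPM (32.2 to 48.5) and 150 UMIs or 22.2 CPM (18.8 to 26.1). Sparc stood near P2ry12, at 52.9 CPM (44.2 to 62.9) and 60.5 CPM (54.7 to 66.6). In the YFP negative library the intervals of Sparc, P2ry12 and P2ry13 overlapped, so their order is not resolved there, and in the YFP positive library those of P2ry13 and Olfml3 overlapped.

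Olfml3 and Tmem119 were rare. Olfml3 gave 35 UMIs or 14.5 CPM (10.1 to 20.1) in YFP negative and 139 UMIs or 20.6 CPM (17.3 to 24.3) in YFP positive cells. Tmem119 gave 8 UMIs or 3.31 CPM (1.43 to 6.52) and 39 UMIs or 5.78 CPM (4.11 to 7.90). No UMI of Sall1 was found in either library, in cells or in free RNA. A count of 0 allows up to 1.24 CPM in YFP negative and 0.445 CPM in YFP positive cells, and a share of up to 0.287% of the 1045 and 0.074% of the 4053 cells with a UMI.

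**Figure D1:**
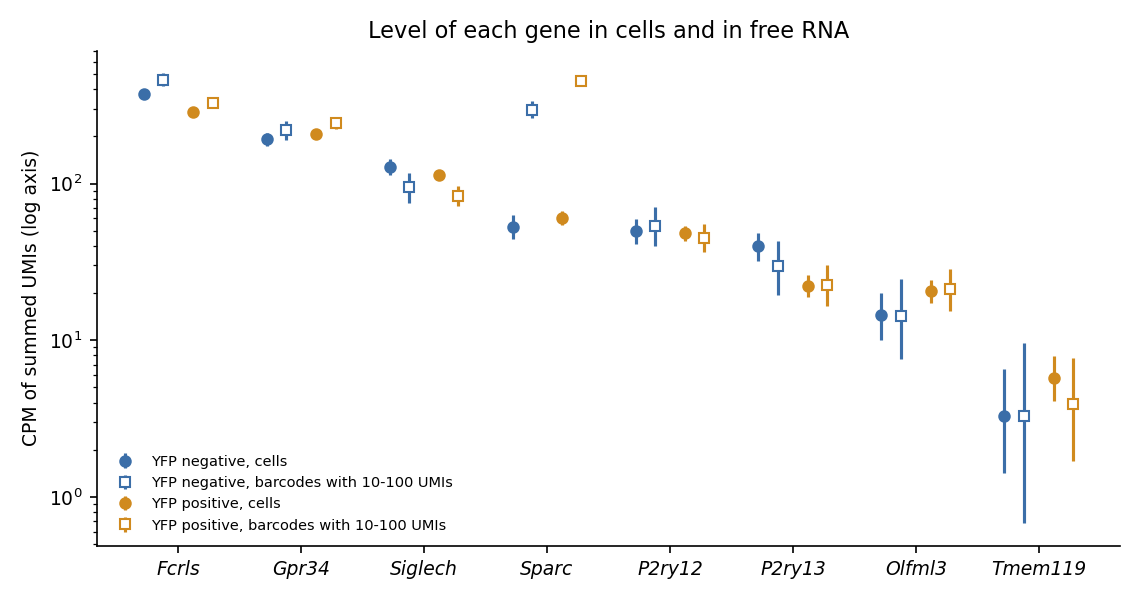
Level of 8 of the 9 genes (Sall1 had no UMI) in CPM on a log axis, for cells (filled circles) and for barcodes with 10 to 100 UMIs (open squares) of each library, with 95% Poisson intervals. Cells and free RNA sit close together for most genes, Siglech lies above its free RNA in both libraries, and Sparc lies far below it, at 52.9 against 297 CPM in YFP negative and 60.5 against 454 CPM in YFP positive.

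Most members stood at nearly the same level in the cells and in the free RNA around them. The free RNA itself held macrophage RNA. In it the macrophage gene C1qa stood at 6849 CPM in YFP negative and 6249 CPM in YFP positive, beside 6161 and 6101 CPM in cells. A ratio near 0 therefore cannot tell expression by the cells from background. P2ry12 gave 53.9 CPM in YFP negative and 45.2 CPM in YFP positive free RNA, and the log2 ratio of cells over free RNA (pseudocount 1 CPM) was -0.12 (-0.60 to 0.38) and 0.09 (-0.24 to 0.43). Siglech was the member with a ratio above 0 in both libraries by its interval, 0.43 (0.08 to 0.78) and 0.45 (0.21 to 0.69). It was not so at every depth: in cells of at least 4000 UMIs Siglech stood at 90.2 CPM (61.3 to 128) in YFP negative, beside 94.5 CPM in free RNA, and at 51.9 CPM (31.7 to 80.2) in YFP positive, below the 83.6 CPM of free RNA. Fcrls was lower in cells, at -0.30 (-0.47 to -0.13) and -0.18 (-0.31 to -0.05), and Gpr34 at -0.19 (-0.44 to 0.05) and -0.23 (-0.38 to -0.08). For comparison, the microglial chemokine receptor Cx3cr1 stood at 0.54 and 0.80 and the transcription factor Mef2c at 0.96 and 0.97. These 2 do not stand for other microglial genes at large. Over 31 other microglia signature genes at 20 CPM or more the median was 0.01 and 0.10. Of them 3 in each library were at least 1.5-fold higher in cells, against 11.6% and 9.73% of all genes. In free RNA 2 and 0 were as much higher, against 15.1% and 9.55%.

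Sparc went furthest the other way. It was 5.52-fold lower in cells than in free RNA of the YFP negative library (log2 -2.47, -2.78 to -2.16) and 7.41-fold lower in the YFP positive library (-2.89, -3.06 to -2.72). The other members were within 1.5-fold of their free RNA or under 20 CPM. Thus 1 member, Sparc, was at least 1.5-fold higher in free RNA in each library, against 15.1% of the genes at 20 CPM or more in the YFP negative and 9.55% in the YFP positive library, and 0 members were at least 1.5-fold higher in cells, against 11.6% and 9.73%. The median log2 ratio was -0.16 and -0.10 for the members and -0.14 and -0.10 for all genes compared, so the list as a whole stood where the genes at large stood.

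The share of cells with a UMI depends on depth and on free RNA, and was therefore also taken after thinning every cell to 500 UMIs. Before thinning, 51.0% of YFP negative and 32.6% of YFP positive cells had an Fcrls UMI, 28.7% and 26.0% a Gpr34 UMI, 22.5% and 15.4% a Siglech UMI, 10.4% and 7.43% a P2ry12 UMI, and 7.66% and 3.55% a P2ry13 UMI. After thinning these became 18.6% and 13.03% for Fcrls, 9.47% and 9.60% for Gpr34, 2.49% and 2.22% for P2ry12, and 1.53% and 1.01% for P2ry13. A barcode made of 500 UMIs of free RNA would show Fcrls in 20.5% and 15.1%, Gpr34 in 10.4% and 11.5%, P2ry12 in 2.66% and 2.24% and P2ry13 in 1.47% and 1.12% of cases. The thinned shares of these 4 genes did not exceed by more than counting error what free RNA alone would give, so no level above that background is read from them. Because free RNA holds macrophage RNA too, expression by the cells is not excluded either. In YFP positive cells Fcrls (12.01 to 14.1) and Gpr34 (8.71 to 10.5) lay below the share of free RNA by their intervals. Siglech was above it, at 6.79% (5.34 to 8.49) against 4.62% in YFP negative and 5.63% (4.94 to 6.38) against 4.09% in YFP positive cells. Sparc was far below it, at 1.82% against 13.8% and 1.85% against 20.3%.

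The 2 libraries held the gene set at similar levels, with P2ry13 as the exception. P2ry13 was lower in YFP positive cells, 22.2 against 39.7 CPM, a log2 ratio of -0.81 (-1.18 to -0.44). Fcrls was also lower, by a smaller step (-0.37, -0.49 to -0.26). The free RNA of Fcrls was lower too, at 326 CPM in YFP positive against 460 CPM in YFP negative. P2ry12, the neighbour of P2ry13, stood at -0.04, Siglech at -0.16 (-0.35 to 0.04), Gpr34 at 0.12 (-0.03 to 0.28) and Sparc at 0.19. The rare genes leaned the other way, Olfml3 at 0.48 (-0.03 to 1.02) and Tmem119 at 0.65 (-0.26 to 1.58), with intervals that include 0.

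Of the 6 members with a mean of at least 20 CPM, 1 (P2ry13) was at least 1.5-fold higher in YFP negative cells, against 5.77% of the 5531 genes at that level, and 0 were as much higher in YFP positive cells, against 1.54%. The median log2 ratio was -0.10 for these members and -0.00243 for all such genes, whose quartiles were -0.164 and 0.147, and 7.3% of them differed by 1.5-fold in either direction. In free RNA P2ry13 stood at 29.7 CPM (19.6 to 43.2) in YFP negative and 22.6 CPM (16.6 to 30.2) in YFP positive, from 27 and 46 UMIs. These intervals overlap, so whether P2ry13 differed less in free RNA than in cells is not resolved. When cells were thinned to 500 UMIs its ratio was -0.54, below the 1.5-fold mark, while Fcrls stood at -0.52, Gpr34 at -0.16 and Tmem119 at -0.54, the last 2 with the sign turned. With 1 library per group, the libraries and the labels cannot be told apart.

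**Figure D2:**
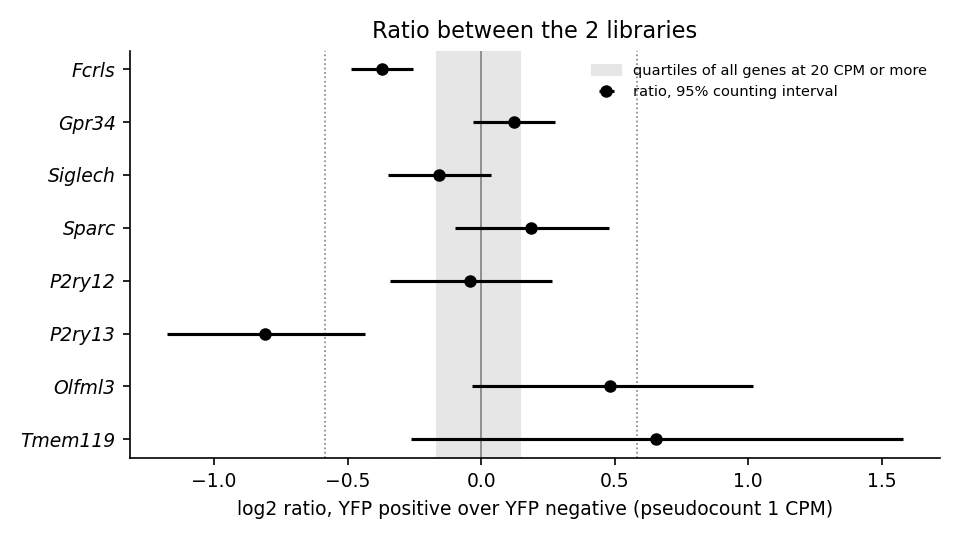
Log2 ratio of YFP positive over YFP negative cells (x axis, pseudocount 1 CPM) for 8 of the 9 genes (Sall1 had no UMI), with 95% counting intervals. Dotted lines mark 1.5-fold and the grey band the quartiles of all genes at 20 CPM or more (-0.164 to 0.147); P2ry13 lies past the left line at -0.81.

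Most members were spread thinly over many cells, and Sparc was packed into few. If every cell of a library held a gene at a common level, 112 YFP negative cells would carry a P2ry12 UMI, and 109 did, while 309 YFP positive cells would, and 301 did. Siglech was found in 235 cells against 259 and in 623 against 684, Fcrls in 533 against 565 and in 1323 against 1461, and Gpr34 in 300 against 358 and in 1054 against 1138. A Gpr34 count as high as 9 UMIs occurred in a YFP negative cell, whereas P2ry12 never exceeded 3. These observed counts were 0.839 to 0.975 of those at a common level.

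Sparc was found in 42 YFP negative cells against 119 and in 151 YFP positive cells against 383. In the YFP negative library 10 cells held 73.4% of its UMIs, 31 of them in 1 cell, and in the YFP positive library 40 cells with at least 3 UMIs held 68.1%. Olfml3 was found in 25 cells against 34.3 and in 110 against 136, and Tmem119 in 4 cells against 7.96, with 4 of its 8 UMIs in 1 cell, and in 34 cells against 38.8.

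**Figure D3:**
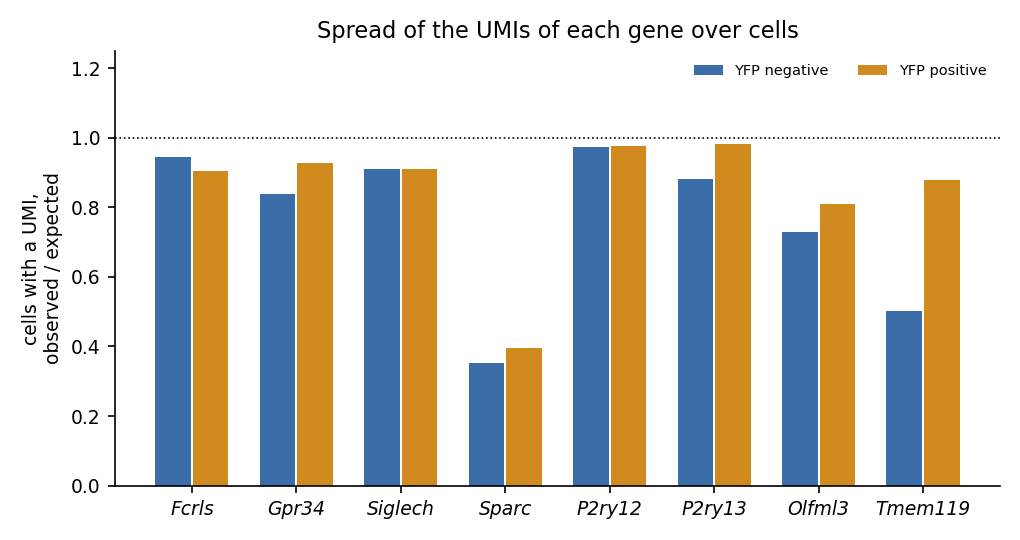
Number of cells with a UMI divided by the number expected if every cell of the library held the gene at 1 common level (y axis, dotted line at 1.0), for 8 of the 9 genes (Sall1 had no UMI) in each library. Bars start at 0; Sparc stands at 0.354 and 0.395, and P2ry12 at 0.974 and 0.975.

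Cells of both libraries were clustered together with the 9 members left out, which gave 11 clusters that are called here by number and leading genes. The clusters differed in Siglech and Fcrls more than in P2ry12. Outside cluster 10, described next, the highest cluster held 1.69 times the P2ry12 CPM of the lowest, 2.40 times the Gpr34 CPM, 2.62 times the Fcrls CPM and 7.40 times the Siglech CPM. The factor for P2ry13 was 15.2, with a lowest value that rests on 1 UMI. The lowest Siglech value, in cluster 11, rests on 5 UMIs. The next lowest was 68.7 CPM in cluster 4, against 155 CPM in cluster 3, the highest. P2ry12 ran from 39.1 CPM in cluster 2 to 66.1 CPM in cluster 3, a cluster led by the immediate early genes Fosb, Cyr61, Jun and Fos.

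Cluster 10, 90 cells led by genes that include Acta2 and Tagln, carried 24153 CPM of Schwann cell markers against 266 to 411 CPM in the other clusters, and held 2600 CPM of the macrophage gene C1qa against 5125 to 7534 CPM elsewhere. It held 387 Sparc UMIs, 72.2% of all Sparc UMIs in cells, at 3012 CPM, and 73.3% of its cells had one. In the other 10 clusters Sparc ran from 7.50 to 30.1 CPM, and without cluster 10 its level was 15.0 CPM in YFP negative and 17.0 CPM in YFP positive cells, so the level of Sparc given above rests on these 90 cells. Fcrls (70.1 CPM) and Gpr34 (46.7 CPM) were at their lowest there. The share of cells with a UMI in cluster 10 (median 940 UMIs) was 8.89% for Fcrls, 5.56% for Gpr34, 7.78% for Siglech and 2.22% for P2ry12. In cluster 1, of like depth (median 983 UMIs), these shares were 24.6%, 19.2%, 13.5% and 5.93%. They were 42.2%, 26.4%, 15.5% and 6.08% in cluster 5 (median 1088 UMIs), which was the highest in Fcrls and Gpr34.

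Cluster 4 (664 cells, 75 YFP negative and 589 YFP positive), led by S100a4, Lgals3, S100a6, Ccr2 and Retnla, held less of several members. Siglech stood at 68.7 CPM there, a log2 ratio to all other cells of -0.87 (-1.18 to -0.57), Fcrls at 194 CPM (-0.77, -0.95 to -0.59) and P2ry13 at 16.6 CPM (-0.75, -1.39 to -0.16). P2ry12 (-0.08) and Gpr34 (0.08) stood near the other cells, and Olfml3 was higher at 29.7 CPM (0.76, 0.24 to 1.26). Olfml3 was at its highest in cluster 10, at 46.7 CPM from 6 UMIs. The genes of the set therefore did not move as a block in cluster 4, where Olfml3 was higher and Siglech lower.

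The same split between Siglech and Olfml3 was seen in cluster 7 (340 cells led by Ccl4, Cxcl2, Hspa1a and Atf3), where Siglech stood at 81.1 CPM (-0.57, -0.96 to -0.21) and Olfml3 at 36.6 CPM (1.03, 0.42 to 1.61). This split depends on the clustering. At resolution 0.4, and after thinning, cluster 7 was matched to the same cluster as cluster 3, the highest in Siglech. Cluster 7 also held 12 of the 47 Tmem119 UMIs, at 15.7 CPM (1.69, 0.72 to 2.57). Cluster 5 (592 cells), led by mt-Co2, Stab1 and the lectin Clec10a, was highest in Fcrls at 509 CPM (0.80, 0.65 to 0.96) and in Gpr34 at 261 CPM (0.40, 0.18 to 0.61). Cluster 9 (129 cells led by Cd209f and Retnla) was highest in P2ry13 at 63.7 CPM (1.26, 0.31 to 2.08) and low in Gpr34 at 112 CPM (-0.88, -1.56 to -0.26).

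The 74 cells of cluster 11, led by the cell cycle gene Top2a, held 5 Siglech UMIs, 20.95 CPM (-2.46, -3.96 to -1.28), while P2ry12 stood at 54.5 CPM and Fcrls at 281 CPM. Siglech made up 44.0% (39.9 to 48.2) of the Siglech and Gpr34 UMIs in cluster 2, 24.4% (20.2 to 28.9) in cluster 4 and 16.1% (5.45 to 33.7) in cluster 11, the last from 5 Siglech UMIs.

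**Figure D4:**
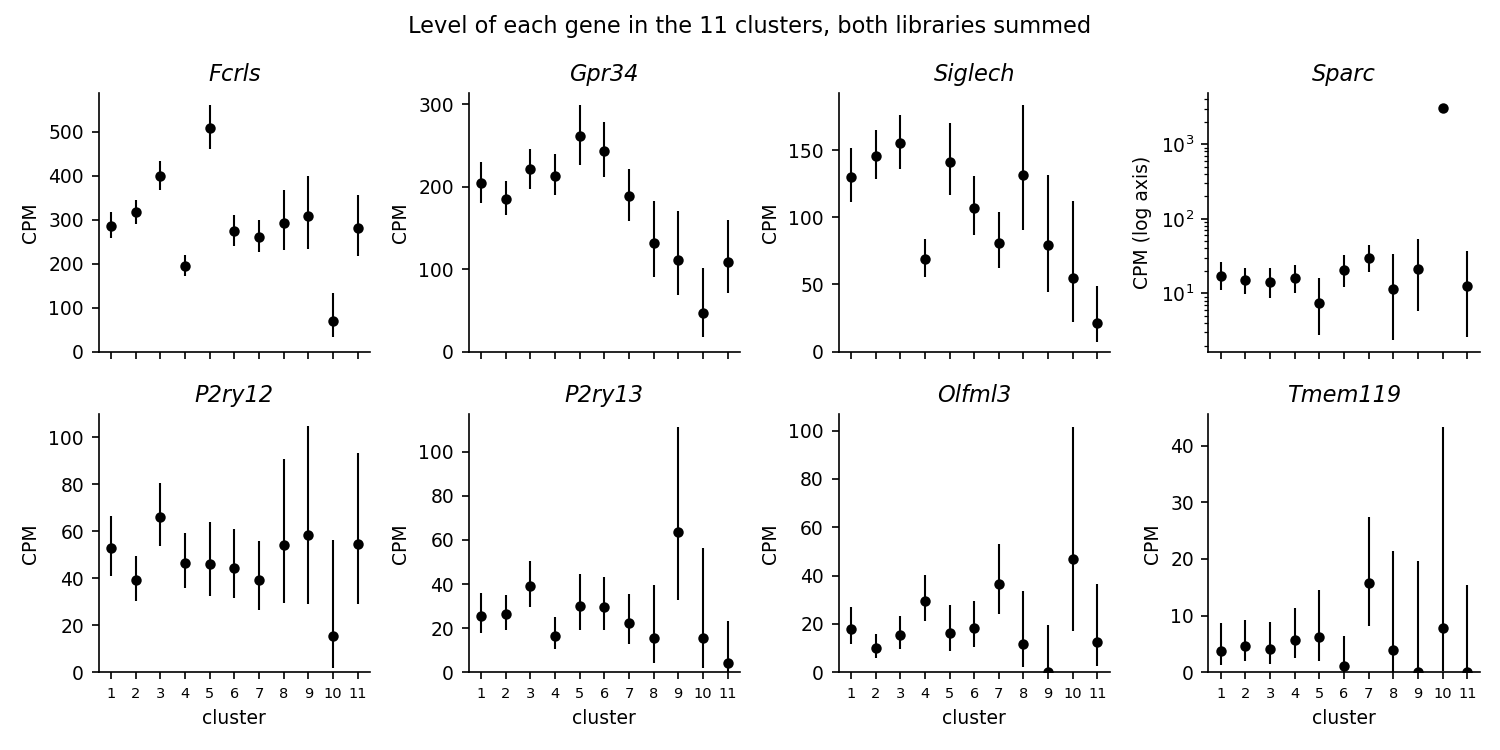
CPM of 8 of the 9 genes (Sall1 had no UMI) in each of the 11 clusters with both libraries summed, with 95% Poisson intervals; each panel has its own y axis from 0, except Sparc, which is on a log axis. Siglech and Fcrls drop in cluster 4 (68.7 and 194 CPM), Olfml3 is high in clusters 4, 7 and 10 (46.7 CPM from 6 UMIs in the last), and Sparc reaches 3012 CPM in cluster 10.

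The libraries held the clusters in different proportions, so levels were also compared with the YFP positive cells weighted to the cluster mix of the YFP negative cells. P2ry13 then stood at 23.5 against 39.7 CPM (log2 -0.73), and was higher in YFP negative cells in 6 of the 8 clusters with at least 10 UMIs. Only in cluster 3 was its interval clear of 0, with 59.9 CPM in YFP negative and 25.6 CPM in YFP positive cells (-1.20, -1.99 to -0.42). In the others of these clusters the interval included 0. The Fcrls ratio shrank to -0.15, with 6 of 10 clusters higher in YFP negative and 4 of 10 higher in YFP positive cells. Gpr34 stood at 0.16 and was higher in YFP positive cells in 8 of 10 clusters, and P2ry12 (0.00) and Siglech (0.05) were level. Sparc turned to -0.59, and it rests on the 12 YFP negative and 78 YFP positive cells of cluster 10.

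The genes most like each member across clusters were taken by Pearson's r of log2(CPM + 1) over 17 groups, each a cluster of at least 50 cells in 1 library. These groups share libraries and depth, so r is a description. Siglech ran closest to Ms4a4a (0.948), a membrane protein of the MS4A family, and to Pla2g2d (0.926), a secreted phospholipase. Of the other members P2ry13 was like Siglech (0.85, and 0.87 without cluster 10). The group lowest in both genes, the YFP positive cells of cluster 11, held 0 P2ry13 and 4 Siglech UMIs. Whether this likeness, or that of Siglech to Ms4a4a and Pla2g2d, rests on that group was not tested. Siglech stood at 21.7 CPM in it, against 63.3 CPM in the YFP positive cells of cluster 10, so values without cluster 10 do not settle this. Fcrls ran closest to Trf (0.928) and to the mannose receptor Mrc1 (0.927), Gpr34 to Gpr160 (0.887) and Fkbp5 (0.881), and P2ry12 to Hacd4 (0.857) and Tifa (0.837). Sparc ran closest to the peripheral myelin gene Pmp22 (0.933), and close to the myelin gene Mbp (0.916). Without cluster 10 Siglech kept 0.94 with Ms4a4a and Fcrls 0.85 with Mrc1, whereas Gpr34 with Gpr160 stood at 0.66, P2ry12 with Hacd4 at 0.55 and Sparc with Pmp22 at 0.14, so the likeness of Sparc rests on that cluster and that of P2ry12 and Gpr34 in part. Between members, P2ry12 and Gpr34 went from 0.64 to 0.05, P2ry12 and Fcrls from 0.65 to 0.14, and Gpr34 and Fcrls from 0.71 to 0.26.

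Cells of at least 1000 UMIs were next divided by whether they held a UMI of a member, and every gene with a mean of at least 50 CPM was compared between them within each library. Cells with a Sparc UMI (32 of the YFP negative and 111 of the YFP positive cells) carried the myelin gene Mbp at 642 against 53.4 CPM in YFP negative (log2 3.56) and at 1003 against 83.8 CPM in YFP positive cells (3.57). Pmp22 was higher by 3.29 and 2.97. In YFP positive cells Acta2, a smooth muscle actin, was at 946 against 6.79 CPM. Csf1r was at -0.26 and -0.09. At least 1.5-fold higher in both libraries were 0.988% of the genes and lower 1.79%.

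Cells with a Siglech UMI (220 and 514 cells) held less Ccl4 and Lgals3, leading genes of clusters 7 and 4. The chemokine Ccl4 stood at 67.7 against 210 CPM in YFP negative (-1.62) and at 131 against 322 CPM in YFP positive cells (-1.29), the tetraspanin Cd9 at -1.43 and -0.92, and the lectin Lgals3 at -1.66 and -0.86. The cytokine Tslp (0.64 and 0.54) and the immediate early gene Fosb (0.68 and 0.50) were higher. No gene was 1.5-fold higher in both libraries (0.0%) and 0.38% were lower.

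Cells with an Fcrls UMI (484 and 1108 cells) held more of the chemokines Ccl7 (0.89 and 0.86), Ccl2 (1.39 and 0.67) and Cxcl2 (1.98 and 0.47), and less of the resistin-like gene Retnla, at 312 against 928 CPM in YFP negative (-1.57) and at 692 against 1236 CPM in YFP positive cells (-0.84). Retnla was also lower in cells with a Gpr34 UMI (278 and 883 cells), by -2.02 and -0.60. The genes at least 1.5-fold higher and lower in both libraries made up 0.076% and 0.228% for Fcrls and 0.0% and 0.152% for Gpr34. Fosb was higher beside each of Siglech, Fcrls and Gpr34 (0.60 and 0.38 for Gpr34). The 10 genes of the dissociation response list, which hold its relatives Fos and Jun but not Fosb itself, summed to 6882 CPM in YFP negative and 7766 CPM in YFP positive cells, and the part of that response in these differences was not tested.

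The purinergic receptors were seen together somewhat more often, within counting error. In cells with a P2ry12 UMI (107 and 263 cells) P2ry13 stood at 60.4 against 37.0 CPM in YFP negative (0.69, -0.08 to 1.41) and at 33.1 against 19.8 CPM in YFP positive cells (0.71, -0.03 to 1.39). Ms4a4a was higher in the same cells by 0.79 (0.22 to 1.32) and 0.77 (0.20 to 1.31), and Selenbp1, a selenium-binding protein, by 0.68 and 0.80. Genes at least 1.5-fold higher in both libraries made up 0.076% and lower ones 0.228%. Cells with a P2ry13 UMI held more Fcrls, by 0.43 (0.12 to 0.72) and 0.36 (0.05 to 0.66), and the shares for P2ry13 were 0.152% and 0.494%.

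Olfml3 was as abundant in free RNA as in cells, at 14.3 against 14.5 CPM in YFP negative and 21.1 against 20.6 CPM in YFP positive. After thinning to 500 UMIs, 0.57% and 1.01% of cells had a UMI of it, against 0.71% and 1.05% for free RNA alone. Which of its UMIs came from free RNA cannot be told. Cells with an Olfml3 UMI held more of several other microglial genes than cells without one. This comparison was chosen after its values were seen, and rests on 24 of the YFP negative and 94 of the YFP positive cells, with median depths of 2685.5 and 2045.5 UMIs against 2519 and 1892 UMIs in the cells without. Tmem119 stood at 41.9 against 1.79 CPM in YFP negative (3 against 4 UMIs, log2 3.94, 1.48 to 5.68) and at 38.5 against 4.77 CPM in YFP positive cells (8 against 27 UMIs, 2.77, 1.502 to 3.86). Cx3cr1 was at 544 against 267 CPM (1.03, 0.52 to 1.49) and at 721 against 323 CPM (1.16, 0.91 to 1.40). Both genes were thus higher beside Olfml3 in each library by these intervals, which take UMIs as independent and do not measure the spread over cells. For Tmem119 this matters most, as its 8 UMIs in the YFP negative cells lay in 4 cells, 4 of them in 1 cell.

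The lipid receptor Trem2 (1.23 and 0.89), the TGF-beta receptor Tgfbr1 (1.98 and 0.98) and the lysosomal protease Lgmn (0.97 and 0.62) were higher as well, whereas Csf1r (-0.10 and 0.26) and the members Fcrls (0.01 and 0.41), Gpr34 (0.06 and 0.45) and Siglech (-0.60 and -0.01) were not higher in both libraries by their intervals. Siglech rested on 6 UMIs beside Olfml3 in the YFP negative library, with an interval from -2.03 to 0.53. Of the 31 genes of the wider microglia list at 20 CPM or more, 7, among them Cx3cr1, Trem2, Tgfbr1 and Lgmn, were at least 1.5-fold higher in both libraries and 2 (Tgfbr2 and Ltc4s) lower. Among the 2632 genes at 50 CPM or more, a higher threshold than for the list, 1.37% were as much higher and 3.88% as much lower. For the other members compared in this way, 0 of the 31 list genes were as much higher or lower in both libraries. For those members the shares of all genes at 50 CPM or more were also smaller, at most 0.988% higher and at most 1.79% lower. Olfml3 rested on the fewest cells, and whether its difference from the other members goes beyond counting error was not tested. Retnla was lower beside Olfml3, at 167 against 583 CPM (-1.79) and 264 against 1034 CPM (-1.96). The endothelin receptor gene Ednrb had 0 UMIs beside Olfml3 in both libraries against 149 and 220 UMIs in the other, far more numerous, cells. Both genes lead cluster 9, whose 129 cells held 31.3% of all Retnla UMIs. Cluster 9 had 0 Olfml3 UMIs, with an interval that includes 0 (-4.35 to 0.03). In clusters 4 and 7, where Olfml3 was higher, Retnla was high too, at 2122 and 1271 CPM. How far the differences in Retnla and Ednrb rest on cluster 9 was not tested.

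The differences in Cx3cr1 and Trem2 were also seen outside clusters 4 and 7, which held many of the Olfml3 UMIs. Without those clusters, 16 and 55 cells with Olfml3 were left, and Cx3cr1 stood at 1.11 (0.51 to 1.66) and 1.30 (0.96 to 1.61) and Trem2 at 1.03 (0.44 to 1.57) and 0.96 (0.58 to 1.32). Tmem119 was then left with 1 and 4 UMIs beside Olfml3, and its interval in the YFP negative library included 0 (-1.23 to 5.44). Of the 94 YFP positive cells with Olfml3, 1 lay in cluster 10.

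**Figure D5:**
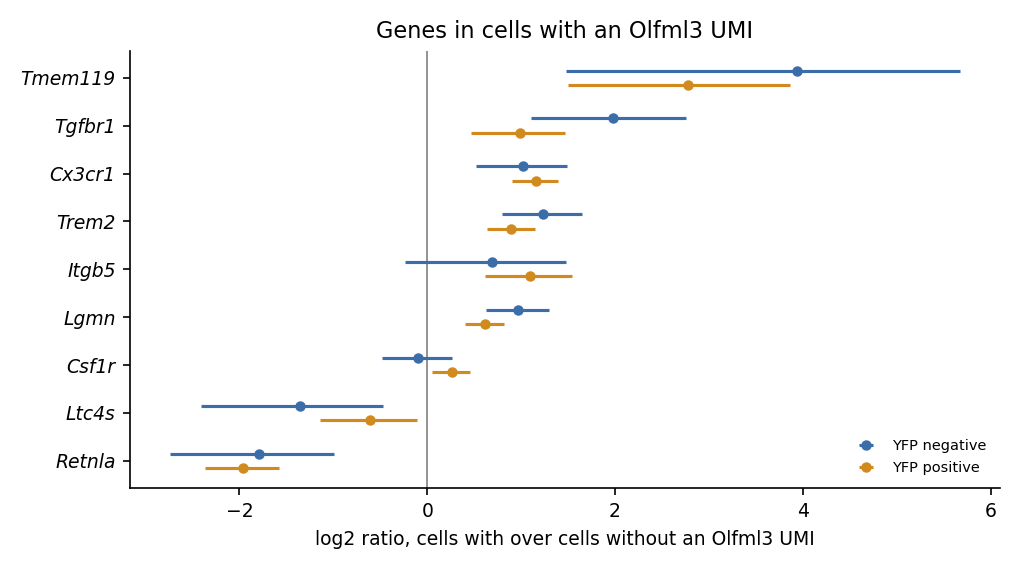
Log2 ratio (x axis) of cells with over cells without an Olfml3 UMI, among cells of at least 1000 UMIs, for 9 genes in each library with 95% counting intervals. Tmem119, Tgfbr1, Cx3cr1, Trem2, Itgb5 and Lgmn lie right of 0, Csf1r near 0, and Ltc4s and Retnla left of 0; the intervals of Itgb5 and Csf1r in YFP negative cells cross 0.

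The wider programme around the members was at similar levels in both libraries. Of 40 other microglia signature genes, 31 reached 20 CPM and 1 of them, Tgfbr1, was at least 1.5-fold higher in YFP positive cells (92.5 against 60.0 CPM, log2 0.62), with 0 higher in YFP negative cells and a median log2 ratio of -0.06, against 1.54% and 5.77% of all genes at that level. Trem2 stood at 317 and 353 CPM, Cx3cr1 at 273 and 337 CPM and Mef2c at 608 and 618 CPM. Sall3, a relative of Sall1, had no UMI in either library, nor had Gal3st4 and Upk1b. Of the 18 genes of the TGF-beta pathway, 9 reached 20 CPM, and 2, Tgfbr1 and the SMAD repressor Skil (69.4 against 36.8 CPM, 0.90), were higher in YFP positive cells, against the same 1.54% of all genes. The ligand Tgfb1 stood at 178 and 143 CPM, its microglial anchor Nrros at 174 and 146 CPM and the receptor Tgfbr2 at 121 and 99.0 CPM.

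Relatives and neighbours of the members were mostly scarce. Of 32 such genes, 4 reached 20 CPM, the UDP receptor P2ry6 (319 and 302 CPM), the lectins Cd33 (151 and 150 CPM) and Siglece (66.2 and 59.7 CPM), and Cask, and none of the 4 differed by 1.5-fold between the libraries. P2ry14, the next purinergic receptor along from P2ry13 and P2ry12, gave 9 and 18 UMIs, Gpr82, beside Gpr34, gave 2 and 2, and Gpr171 gave 0. The 6 markers of plasmacytoid dendritic cells, the other cells known for Siglech, summed to 4.55 and 4.89 CPM in cells, and none of them reached 20 CPM.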

How the data were processed

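The 2 10x Genomics v2 libraries of sorted SN macrophages were analysed. The deposited values were raw UMI counts per gene and barcode on GRCm38, which the authors made by mapping and counting reads. The submitters' processing notes name Cell Ranger 3.0.2 and Seurat 2.2.0. Barcodes with at least 500 UMIs and 200 genes were taken as cells. A published minimum of mapped reads per cell could not be repeated on UMIs. Doublets were not called. An alternative left out the 5% of cells with most UMIs in each library.

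Counts were summed over cells and given as CPM with exact Poisson intervals, shares with Clopper-Pearson intervals, and log2 ratios (pseudocount 1 CPM) with intervals conditional on the summed counts. Intervals and floors (3 counts) cover counting error only. With 1 library per group no test was run, and a gene was called by size, at least 1.5-fold at a mean of at least 20 CPM. Clusters came from 2000 variable genes, 20 principal components, 20 neighbours and Leiden resolution 0.8 (scanpy 1.11.5, leidenalg 0.10.2), with the 9 members left out. Their numbers are those of this clustering. Statistics used Python 3.11.15, numpy 2.4.6 and scipy 1.17.1. The intervals, log2 ratios, thinning and expected shares were tested on simulated counts, and the other steps were not. Positions were taken from GENCODE M21 and promoters from RefSeq.

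The 9 members are named in full. For members with at least 100 UMIs in each library, up to 5 genes most alike over clusters and up to 5 with the largest and smallest ratio between cells with and without a UMI could be named, as could genes of the microglia, TGF-beta and relatives lists at 20 CPM or more. Genes below that level in these lists, the leading genes of clusters, and the comparisons of cells with P2ry13 or Olfml3 fall outside this rule and were named after their values were seen. Members and lists were chosen with earlier results of these data known. Some genes are not reported here.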

Additional observations from a re-analysis of the deposited data

How the results depend on the processing

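The number of members at least 1.5-fold higher in YFP negative cells was 1, against 5.77% of all genes at 20 CPM or more. It became 2 with 10% free RNA subtracted, 0 with cells thinned to 500 UMIs and 2 with the same mix of clusters in both libraries, an alternative chosen after seeing the data. With free RNA taken from barcodes of 50 to 100 UMIs, 2 members in place of 1 were higher in free RNA and 2 in place of 0 were higher in cells of the YFP negative library. The share of all genes called was not taken under any alternative. A shift of these counts therefore cannot be told from a shift of all genes. Clustered at resolution 0.4, the log2 ratio of Gpr34 in cluster 8 over the other cells was 0.00792 in place of -0.65. The 141 cells of cluster 8 were there matched to a far larger cluster of 2107 cells. Their overlap, the cells in both clusters as a share of the cells in either, was 6.29%. Such an overlap is low wherever the matched cluster is far larger, so it does not give the share of cluster 8 that was kept. The cause of these changes was not tested. The other counts of members under each alternative stayed within 1.5 times of the values given. Beyond their counting interval moved 13 levels (131 did not), 24 ratios of cells over free RNA (174 did not), 30 shares (24 did not), 68 cluster ratios (327 did not), 54 ratios between cells with and without a member (454 did not) and 9 ratios between libraries (99 did not). Free RNA from barcodes of 50 to 100 UMIs moved 12 of the ratios of cells over free RNA and left 6. Thinning before clustering gave an overlap, measured in the same way, as low as 5.59%, between the 141 cells of cluster 8 and a matched cluster of 1012 cells. Clusters 3 and 7 were both matched to the same cluster at resolution 0.4 (843 cells) and after thinning (858 cells). Their Siglech ratios to the other cells, 0.49 and -0.57, therefore cannot both keep their sign under those alternatives. Among the ratios between libraries, Sparc went from 0.19 to -0.20 in the deepest barcodes taken in the captured numbers of cells, to -0.60 with free RNA subtracted and to -0.59 with the same mix of clusters, while Tmem119 went to -0.54 and Gpr34 to -0.16 with cells thinned to 500 UMIs and Siglech to 0.05 with the same mix of clusters. All values without cluster 10, or without clusters 4 and 7, are also alternatives chosen after seeing the data. Depth limits Tmem119, Olfml3 and all values of cluster 11. No paired analysis was possible because each group has 1 library and no test was run.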
